A study of Rattus norvegicus with 12 samples.

Results

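The genes described here are 31 nuclear receptors of the rat, measured in kidney cortex. A member was taken as any probe set, a group of short probes read as 1 signal, whose array annotation named that gene alone, with older aliases updated. Of 31099 probe sets on the array 49 qualified, and they covered 29 of the 31 genes. Hnf4g and Nr6a1 had no probe set named for them alone and were not analysed here. The set was drawn up to leave out receptors of the circadian clock and of steroids. By its own list it nevertheless holds Rora, which also takes part in the clock, and the sex steroid receptors Esr1 and Pgr.

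Nuclear receptors are transcription factors that bind DNA directly and are switched by small fat-soluble ligands, although several have no settled ligand and are called orphans. Many work as pairs with a retinoid X receptor (Rxra, Rxrb or Rxrg), and they recognise copies of a short half-site whose spacing sets which pair binds. In the kidney tubule they are known for setting fatty acid use (the PPARs), water and lipid handling (Nr1h4), cholesterol export (Nr1h2 and Nr1h3) and the identity of the proximal tubule (Hnf4a).

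All rats were male. The 2 nondiabetic groups received vehicle at 4 or 14 weeks of age and later a pellet of palmitate vehicle. The 2 diabetic groups were given streptozocin into a vein (65 mg/kg) at the same ages, which destroys beta cells of the pancreas, and a pellet of insulin palmitate on day 3. Tissue was taken after 6 weeks, at 10 or 20 weeks of age, so that diabetes began before puberty in the younger rats and after it in the older ones. Blood glucose of the diabetic rats is labelled 350 to 450 mg/dl. Each group had 3 arrays, and the strain is not given in the sources used here. By the labels streptozocin and a pellet naming insulin went with diabetes in every diabetic rat, so their effects cannot be told apart from it. The label of 10-week diabetic replicate 1 adds the word vehicle to the insulin palmitate pellet, so whether that rat received insulin is unclear.

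The signals are linear and in arbitrary units, and every array had been scaled to the same mean. Probe sets with a geometric mean below 70.9 over the 12 arrays, the dimmest 40%, were not tested, since no detection calls were at hand. Correlations between arrays ran from 0.941 to 0.976 over probe sets. The 3'/5' signal ratio of Gapdh, which rises as RNA degrades, lay between 1.41 and 1.75 on 11 arrays and was 2.09 on 20-week nondiabetic replicate 1. It was 1.6, 1.68 and 1.75 on the 20-week diabetic arrays and 1.41 to 1.54 on the rest, so it went partly with diabetes at 20 weeks. The same ratio of beta-actin ran from 6.3 to 11.4. It was highest on 20-week diabetic replicate 2 (11.4) and 20-week nondiabetic replicate 1 (11.2). Both 20-week nondiabetic replicate 1 and 10-week diabetic replicate 1 were doubted, and receptor results and list counts were recomputed without them. Markers of the proximal tubule were bright in every group, with Lrp2 between 19491 and 25832, whereas the liver marker Alb stayed between 6.44 and 71.5.

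**Figure D1:**
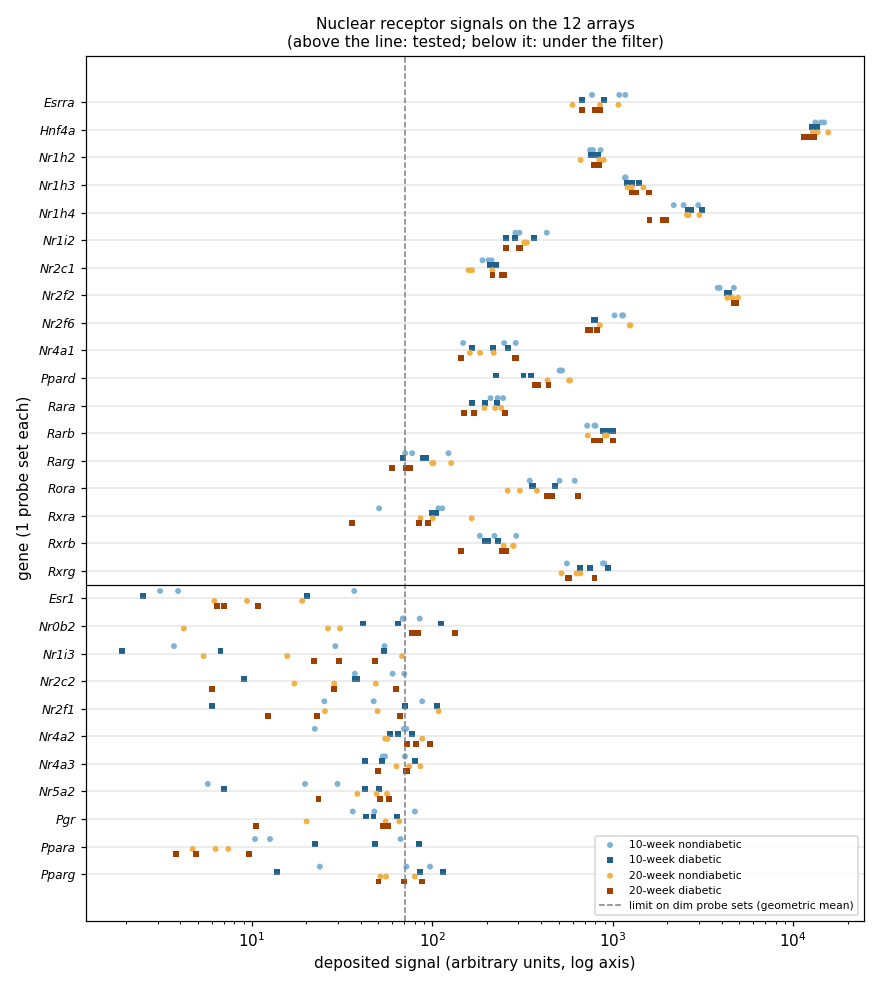
Signal of each of the 29 receptors on the 12 arrays (horizontal log axis, arbitrary units; 1 probe set a gene, the brightest), with circles for nondiabetic and squares for diabetic rats. The 18 genes above the black line were tested and the 11 below it scatter around or under the dashed limit of 70.9; probe sets of different genes bind unequally, so the order of genes along the axis is no order of transcript amounts.

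In diabetes 3 of the 18 receptors tested were called, all lower, 1 at 20 weeks and 2 over both ages. Nr1h4, the bile acid receptor FXR, was lower at 20 weeks (1.51-fold). Nr2f6, an orphan repressor of the COUP-TF family, and Ppard, the PPAR found in most tissues, were lower over both ages (1.41-fold and 1.52-fold). The calls of Nr1h4 and Nr2f6 were lost without both doubted arrays. Each of the 18 genes tested was represented by its brightest probe set. A gene was called when its limma p-value, adjusted by Benjamini-Hochberg over all 18625 probe sets, was under 0.05. "Over both ages" is the mean of the diabetes differences at 10 and 20 weeks. Over both ages 2 of 18 receptors were called, none higher and 2 lower, where 4.47% of all probe sets tested were called, 2.14% higher and 2.34% lower. That balance depends on the scaling: of the probe sets called over both ages 47.8% were higher, and with array medians set equal 61.7% were (456 higher and 283 lower). Setting medians equal moved the median difference of all probe sets from -0.021 to 0.089 at 10 weeks and from -0.010 to 0.028 over both ages. At 20 weeks 1 of 18 was called, against 2.84% of all probe sets (1.22% higher and 1.62% lower), and 7 of 18, 5 of them lower, had an unadjusted p under 0.05 by limma, beside 16.8% of all. At 10 weeks limma called 0 of 18, against 0.306% of all probe sets, and 3 had an unadjusted p under 0.05 (10.9% of all probe sets did). The median log2 difference of the 18 was -0.16 over both ages, beside -0.01 for all probe sets. With so few receptors called, their counts do not set them apart from all probe sets.

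**Figure D2:**
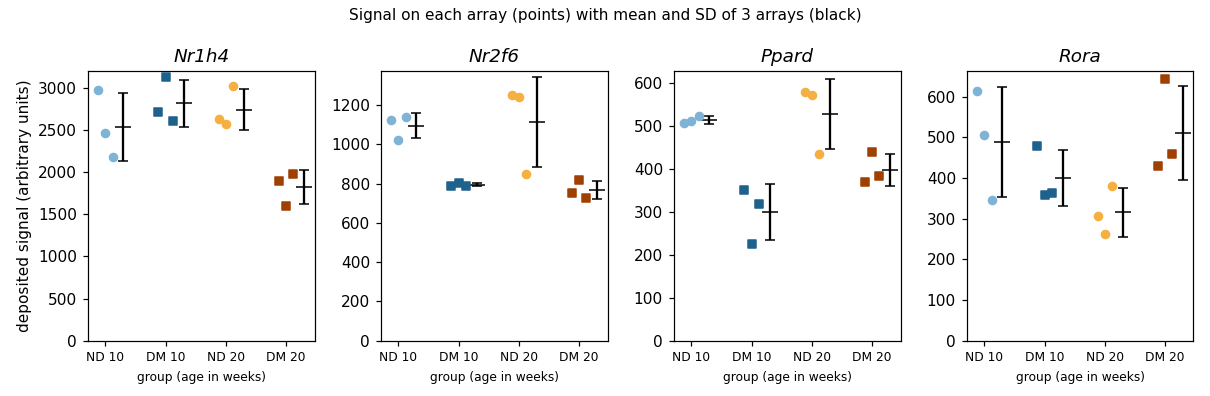
Deposited signal (vertical axis, arbitrary units, from 0) of Nr1h4, Nr2f6, Ppard and Rora on each array, in nondiabetic (ND, circles) and diabetic (DM, squares) rats of 10 and 20 weeks; black marks are the mean and SD of 3 arrays. Nr1h4 stands apart in the diabetic rats of 20 weeks (1596 to 1980), Nr2f6 is lower in both diabetic groups, Ppard is lowest in diabetic rats of 10 weeks, and Rora did not pass in any comparison.

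Nr1h4 (probe set 1369073_at) binds bile acids, and in the kidney it is known to act on water and lipid handling. In nondiabetic rats of 10 weeks its signals were 2971, 2467 and 2175, and in diabetic rats of that age 2710, 3126 and 2607. At 20 weeks they were 2630, 2576 and 3019 in nondiabetic and 1897, 1596 and 1980 in diabetic rats. The groups overlapped at 10 weeks, while at 20 weeks every diabetic array lay under every nondiabetic one, and under every array of the younger rats as well. The mean went from 2741 ± 242 (SD, n = 3) to 1824 ± 202 at 20 weeks, a log2 difference of -0.59 ± 0.13 (SE; limma adjusted p = 0.0277). At 10 weeks the difference was 0.16 ± 0.13 (adjusted p = 0.696). The test of the difference between the 2 ages, the interaction, gave 0.75 ± 0.18, with an unadjusted p of 0.00106 by limma and an adjusted p of 0.40, so it did not pass.

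The call for Nr1h4 rests on few arrays. Without any single one of the 6 arrays of 20 weeks the difference stayed between -0.65 and -0.50 but the adjusted p rose to between 0.0521 and 0.106, and without both doubted arrays it was -0.62 (adjusted p = 0.071). With the Gapdh 3'/5' ratio as a covariate it was -0.59 (adjusted p = 0.0368). The summed signal of 13 proximal tubule markers overlapped at 20 weeks, at 157454 to 180319 in nondiabetic and 172145 to 177872 in diabetic rats, and 1 of the 13 (Slc17a3) was called, higher (0 to 2 when single arrays were left out). The sum of 7 thick ascending limb markers was 42257 to 48206 and 28648 to 45093, with 1 of 7 (Cldn10) called lower (0 to 2 when single arrays were left out). Without both doubted arrays limma called 0 in either list at 20 weeks. With all arrays 1.22% of all probe sets were called higher and 1.62% lower at that age. The part of cell composition in the difference was not tested, and in bulk tissue fewer cells of a type and less RNA per cell cannot be told apart.

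Nr0b2, or SHP, is the small partner that lacks a DNA-binding domain and is a classical target of Nr1h4. Its signals were 68.4, 69.3 and 85.1 in nondiabetic and 64.2, 111.8 and 41.1 in diabetic rats of 10 weeks. At 20 weeks they were 4.2, 26.4 and 30.8 in nondiabetic and 77.5, 83.5 and 132.9 in diabetic rats. The groups did not overlap at 20 weeks, with the nondiabetic arrays low, but only 5 of the 12 arrays exceeded 70.9 and the probe set was not among those tested. In a fit with no filter on dim probe sets the difference at 20 weeks was 2.66 ± 0.68 (limma adjusted p = 0.0842), and its size is uncertain at this brightness.

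Of 16 genes listed as Nr1h4 targets in liver or gut, 9 were tested. Over both ages 5 rose and none fell (median 0.77, beside -0.01 for all probe sets, of which 2.14% were called higher). They were Baat, which conjugates bile acids (3.35 ± 0.28), Slc10a2, the bile acid uptake carrier (0.91 ± 0.10), Fga and Fgb, chains of fibrinogen (1.66 ± 0.21 and 1.91 ± 0.45), and Slc51a, a subunit of the bile acid exporter (0.77 ± 0.16). Slc10a2 is a gene that Nr1h4 is known to lower in the gut of some species, so the list may mix both directions. The list was chosen with earlier results of these data known, so its count and median are no test of Nr1h4. Slc10a2 ranged from 204 to 223 in nondiabetic and from 474 to 530 in diabetic rats of 20 weeks, with no overlap. At 20 weeks the same count was 5, with Abcc2, an exporter of conjugates (0.72 ± 0.17), in place of Slc51a (0.85 ± 0.22, adjusted p = 0.0642). It was 4 without both doubted arrays and 3 to 6 when single arrays were left out, with 3 without replicate 2 or 3 of either 20-week group. Leaving out single arrays gave 4 to 6 rises over both ages, and without both doubted arrays the count was 5. Baat and fibrinogen are best known from liver. The summed signal of 8 hepatocyte markers was 6962 to 9383 without and 10941 to 16676 with diabetes at 10 weeks, and 7636 to 10067 and 15799 to 19678 at 20 weeks. Only 2 of the 8 were above the filter, so the sum rests largely on these 2. Of them 1 was called, Cyp2e1, higher, while Alb, Apoa1 and Serpina1 were under the filter. The part of liver RNA in these values was not tested.

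Nr2f6 (probe set 1398826_s_at), known as EAR2, represses transcription and competes with other receptors for their sites. Its promoter is shown because the gene was called over both ages. These are the 250 bases before the annotated start in RefSeq (build GRCr8, chr16:18087450-18087699, minus strand), read 5′ to 3′, with the 2 GC boxes (GGGCGG on either strand) in capitals.
Nr2f6: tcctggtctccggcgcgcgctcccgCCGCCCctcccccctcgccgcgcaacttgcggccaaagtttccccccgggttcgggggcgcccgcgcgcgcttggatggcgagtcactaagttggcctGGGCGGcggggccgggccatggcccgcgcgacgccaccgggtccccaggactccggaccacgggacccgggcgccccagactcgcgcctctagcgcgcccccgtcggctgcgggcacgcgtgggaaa
The window was rich in G and C. In the 300 bases held for each start (250 before and 50 after), a GC box was found in 14 of the 26 receptor genes with such a sequence, and in 33.1% of all 33469 windows. The receptors' own half-site AGGTCA, searched on both strands, was found in 2 of the 26 (Nr5a2 and Rarg) and in 16.2% of all windows. Neither letter match is evidence of binding. Receptors were counted by gene, with 29 windows for the 26 genes, and the background by window, so the 2 shares are not in like units. Nr1h4, Ppard, Nr2f2, Nr4a3 and Hnf4g had no entry.

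The signals of Nr2f6 in rats of 10 weeks were 1125, 1022 and 1140 without and 788.6, 801.9 and 788.6 with diabetes. In rats of 20 weeks they were 1251, 1241 and 847.9 without and 751.6, 817.0 and 727.6 with diabetes. All 6 diabetic arrays lay under all 6 nondiabetic arrays, and the diabetic arrays of 10 weeks were nearly alike (793 ± 7.67). It was the only 1 of the 18 lower without overlap at both ages, a pattern that 2.59% of all probe sets showed. The log2 difference was -0.49 ± 0.10 over both ages (limma adjusted p = 0.0116), -0.46 ± 0.13 at 10 weeks (adjusted p = 0.221) and -0.52 ± 0.13 at 20 weeks (adjusted p = 0.0625).

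Nr2f6 has 4 other probe sets. That with the next brightest signal (63 to 114) gave -0.42 ± 0.18 over both ages, with no overlap at either age, and did not pass (adjusted p = 0.246). The remaining 3 were too dim to test, and they disagreed: 1 was lower in diabetic rats of 10 weeks without overlap (38.4 to 68.4 against 16.6 to 30.9), another was higher in those of 20 weeks without overlap, and the third overlapped at both ages. The letter s in the names of the 2 brighter ones marks probes that can match more than 1 transcript. Without both doubted arrays the call over both ages was lost (-0.44 ± 0.11, adjusted p = 0.0562). Without 20-week nondiabetic replicate 3, the array at 847.9, the difference at 20 weeks was -0.70 and passed (adjusted p = 0.00655). With the mean of all its probe sets, dim ones included, it was -0.01 at 20 weeks (adjusted p = 0.997) and -0.33 over both ages, where the call was lost (adjusted p = 0.583).

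The 3 peroxisome proliferator-activated receptors sense fatty acids. Ppard (probe set 1374914_at) had signals of 506.8, 512.9 and 523.3 in nondiabetic and 351.6, 225.9 and 319.7 in diabetic rats of 10 weeks. At 20 weeks it had 578.9, 572.1 and 434.3 in nondiabetic and 369.5, 439.9 and 382.9 in diabetic rats. The groups were apart at 10 weeks, whereas at 20 weeks 1 diabetic array exceeded the lowest nondiabetic array. Its mean was 514 ± 8.35 without and 299 ± 65.3 with diabetes in the younger rats, and 528 ± 81.6 and 397 ± 37.4 in the older ones. The log2 difference over both ages was -0.60 ± 0.12 (limma adjusted p = 0.0141). At 10 weeks it was -0.81 ± 0.17 and missed the threshold (adjusted p = 0.0848), and at 20 weeks -0.40 ± 0.17 (adjusted p = 0.257). The interaction test by limma did not tell the 2 ages apart (-0.40 ± 0.24, 95% interval -0.93 to 0.12, adjusted p = 0.696).

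The call for Ppard over both ages passed without any single array (adjusted p between 0.00984 and 0.0373) and without both doubted arrays (-0.63, adjusted p = 0.0299). Its other probe set was dim, at 73.0, 63.4 and 48.1 against 3.8, 8.7 and 10.7 at 10 weeks and 28.7, 59.7 and 23.6 against 18, 11.5 and 16.6 at 20 weeks. The groups did not overlap at either age, with the diabetic arrays lower. In the fit with no filter it was called lower over both ages (-2.14 ± 0.46, adjusted p = 0.0271), with a size that is uncertain near the background. Of 6 podocyte markers tested 2 (Nphs1 and Ptpro) were called lower over both ages, 1 or 2 when single arrays were left out and 0 without both doubted arrays. The 6 had sums of 9776 to 10922 against 8536 to 9871 at 10 weeks and 9133 to 9545 against 8821 to 9386 at 20 weeks. Among 12 collecting duct and medulla markers tested, 3 (Aqp2, Fxyd4 and Aqp4) were called higher over both ages. Another 3 (Krt7, Hsd11b2 and Atp6v1b1) were called lower. Beside these counts and that of the podocyte markers, 2.14% of all probe sets were called higher and 2.34% lower over both ages. Without single arrays the counts were 3 or 4 higher and 1 to 3 lower, and without both doubted arrays 3 and 2. At 10 weeks Aqp2 was called higher and Krt7 lower, and neither was without both doubted arrays. The part of these cell types in the values of Ppard and Nr2f6 was not tested.

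Ppara, the driver of fatty acid oxidation in the proximal tubule, could not be followed. Its single probe set lay between 3.76 and 84 and exceeded 70.9 on 1 of 12 arrays. Pparg, known from fat and from the collecting duct, ranged from 13.7 to 115 and exceeded 70.9 on 6 arrays, with overlap between diabetic and nondiabetic rats at each age. Of 10 markers of fat 9 had a probe set and 5 were tested, and none was called. The fat marker Fabp4, also a target of Pparg, gave 2.83 ± 0.78 over both ages (adjusted p = 0.063), from 1.75 to 85.5 in nondiabetic rats of 10 weeks and from 206 to 336 in diabetic ones. The first-named fat marker, Adipoq, stayed between 141 and 245. The fat markers summed to 18387 to 22827 without and 21062 to 25714 with diabetes at 10 weeks. At 20 weeks they summed to 18800 to 27851 and 27234 to 27519. That list holds Pck1, which the list of Hnf4a targets shares, so its sum is not one of fat alone. The part of fat in the PPAR values was not tested.

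Of 30 genes listed as targets of Ppara and Ppard 24 were tested, and over both ages 13 rose, none fell and 11 did not pass (median 0.35). Of all probe sets 2.14% were called higher in that comparison. They included Plin2, a coat protein of lipid droplets (0.53 ± 0.07), Cyp4a1, a fatty acid hydroxylase (0.85 ± 0.14), Pdk4, a brake on pyruvate oxidation (1.44 ± 0.23), and Angptl4, a lipase inhibitor (1.38 ± 0.23). At 20 weeks 6 of the 24 rose and none fell (median 0.38). That count was 3 without both doubted arrays and 2 to 9 when single arrays were left out. It was 2 without 20-week nondiabetic replicate 2 or diabetic replicate 3, 4 without diabetic replicate 2 of that age, and 9 without 10-week diabetic replicate 2 or 3. At 10 weeks limma called none of the 24, with a median of 0.33. Over both ages 9 rose without both doubted arrays, and 11 to 13 when single arrays were left out. Of 10 tested targets of Pparg 1 rose, the glycerol phosphate dehydrogenase Gpd1 (0.39 ± 0.07), and the list's median was 0.21. Both PPAR lists were chosen with earlier results of these data known, so their counts and medians are no test of the PPARs.

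**Figure D3:**
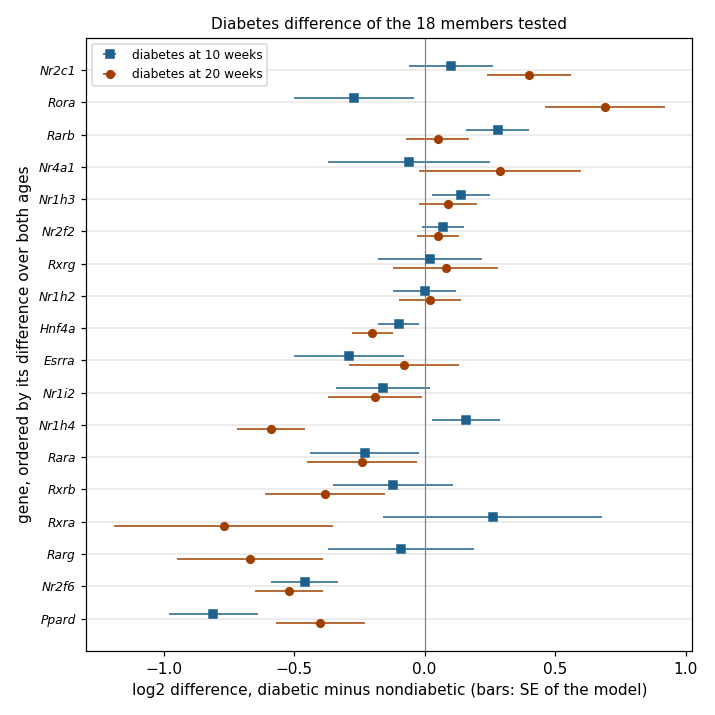
Log2 difference between diabetic and nondiabetic rats (horizontal axis; points with the SE of the model) for the 18 receptors tested, at 10 weeks (squares) and 20 weeks (circles), ordered by the difference over both ages. Ppard and Nr2f6 lie lowest, at -0.60 and -0.49 over both ages. Nr1h4, Rora, Rxra and Nr4a1 have their points on opposite sides of 0 at the 2 ages, and Nr1h2 lies near 0 at both.

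Hnf4a, which with its cofactors maintains the proximal tubule, was bright on all 12 arrays. It read 14209, 14810 and 13243 in nondiabetic and 12741, 13542 and 13197 in diabetic rats of 10 weeks. At 20 weeks it read 12850, 13613 and 15598 in nondiabetic and 12032, 12992 and 11473 in diabetic rats. The diabetic values were on the low side and overlapped the nondiabetic ones at both ages. The difference over both ages was -0.15 ± 0.06 (limma adjusted p = 0.195), with a 95% interval of -0.28 to -0.02. With quantile normalization it was -0.23 and passed (adjusted p = 0.0164). The other 2 probe sets of Hnf4a, at 248 to 629, gave -0.12 ± 0.14 and -0.21 ± 0.14. Of 17 tested genes listed as Hnf4a targets 2 rose over both ages, the glucose carrier Slc2a2 (0.72 ± 0.12) and the urate and phosphate transporter Slc17a3 (0.53 ± 0.09). The glycolate oxidase Hao1 fell (-1.92 ± 0.25), and the list's median was 0.08. For all probe sets the shares called were 2.14% higher and 2.34% lower.

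The liver X receptors sense oxysterols. Nr1h3, or LXR alpha, had signals of 1168, 1176 and 1172 in nondiabetic and 1397, 1202 and 1279 in diabetic rats of 10 weeks. At 20 weeks they were 1478, 1207 and 1273 against 1350, 1280 and 1586. The diabetic arrays of 10 weeks lay above the nondiabetic ones, but the difference of 0.14 ± 0.11 did not pass (adjusted p = 0.681), nor did 0.11 ± 0.07 over both ages (95% interval -0.05 to 0.28). Nr1h2, or LXR beta, was 793 ± 55.8 and 791 ± 32.1 at 10 weeks and 798 ± 120 and 805 ± 30.7 at 20 weeks, in nondiabetic and diabetic rats. Its difference over both ages was 0.01 ± 0.08, and the interval of -0.17 to 0.19 bounds what these arrays could have missed. Of 10 tested LXR targets 1 fell, the fatty acid synthase Fasn (-0.45 ± 0.09), without that call when both doubted arrays were left out (1 or 2 lower without single arrays, with 2 without 10-week nondiabetic replicate 3 or 20-week nondiabetic replicate 1). The cholesterol exporter Abca1 gave 0.32 ± 0.35 (limma adjusted p = 0.698), and the median of the LXR list over both ages was 0.06. Among all probe sets 2.34% were called lower over both ages.

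The xenobiotic sensors were less well measured. Nr1i2, or PXR, was 341 ± 77.9 and 303 ± 56.6 at 10 weeks and 327 ± 5.86 and 287 ± 28.2 at 20 weeks. The 20-week groups did not overlap (323.5 to 333.9 against 254.8 to 305.6), yet the difference of -0.19 ± 0.18 did not pass (adjusted p = 0.649). Nr1i3, or CAR, stayed at or under 68 on all 12 arrays. Of 9 tested targets of both 1 rose over both ages, the glutathione transferase Gsta3 (0.90 ± 0.13), and the list's median was 0.27. Of all probe sets 2.14% were called higher.

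The retinoic acid receptors bind a metabolite of vitamin A. Rarb is also a textbook target of its own ligand, through a response element of which the RefSeq window (build GRCr8, chr15:11336410-11336439, plus strand) holds a copy, bases 25 to 41 after the annotated start. It is shown because Rarb stood apart at 10 weeks, with the direct repeat (half-sites GGTTCA and AGTTCA, with 5 bases of any kind between them) in capitals.
Rarb: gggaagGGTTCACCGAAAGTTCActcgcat
This repeat, searched on both strands, was found in 3 of all 33469 windows (0.00896%) and in Rarb alone of the 26 receptors. The letters searched were those of the Rarb element itself, so the count does not show whether other receptors hold a related element. Rarb read 791.1, 720.9 and 801.2 in nondiabetic and 929.9, 884.2 and 996.8 in diabetic rats of 10 weeks, and 904.5, 925.6 and 725.9 against 1006, 849.5 and 784.7 at 20 weeks. The diabetic arrays were all higher at 10 weeks and mixed with the others at 20 weeks. The difference of 0.28 ± 0.12 at 10 weeks did not pass (adjusted p = 0.429), nor did 0.05 ± 0.12 at 20 weeks (adjusted p = 0.89).

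Rara, the most widespread of the 3, was between 149 and 252 and gave -0.23 ± 0.15 over both ages (limma adjusted p = 0.458). Rarg, best known from skin, was near the limit of 70.9. It read 99.8, 127.2 and 101.4 in nondiabetic and 71.1, 60 and 75.3 in diabetic rats of 20 weeks, without overlap, and -0.67 ± 0.28 did not pass (adjusted p = 0.258). Of 11 tested retinoid targets 3 rose and 2 fell over both ages (median 0.17). Among all probe sets 2.14% were called higher and 2.34% lower. The retinol transporter Stra6 (1.49 ± 0.27), the chemerin gene Rarres2 (0.77 ± 0.15) and the retinoic acid hydroxylase Cyp26b1 (1.09 ± 0.25) rose. The transglutaminase Tgm2 (-1.05 ± 0.17) and the retinal reductase Dhrs3 (-0.27 ± 0.06) fell. Without both doubted arrays 1 rose and 1 fell, and without single arrays 2 or 3 rose and 1 or 2 fell.

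The retinoid X receptors are the shared partners, and none was called. Rxra was dim, between 36 and 165, and gave 0.26 ± 0.42 at 10 and -0.77 ± 0.42 at 20 weeks (adjusted p = 0.389). Rxrb was 232 ± 54.9 and 210 ± 19.0 at 10 weeks and 270 ± 18.9 and 214 ± 61.4 at 20 weeks, a difference of -0.25 ± 0.16 over both ages (adjusted p = 0.473). Rxrg, a form known from muscle and brain, read 520 to 943 on its brighter probe set and gave 0.05 ± 0.14 (adjusted p = 0.903). Its other probe set, at 27.1 to 123, was below the filter and lower in diabetic rats of 20 weeks without overlap, so the 2 disagreed.

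Rora, an orphan that binds half-sites as a single molecule and opposes the Rev-erb repressors of the clock, is described after its values were seen. It read 614.9, 506.2 and 346.6 in nondiabetic and 479.1, 358.0 and 362.1 in diabetic rats of 10 weeks. At 20 weeks it read 305.6, 261.4 and 379.3 in nondiabetic and 429.2, 644.1 and 458.7 in diabetic rats. The diabetic arrays were higher without overlap at 20 weeks and mixed with the others at 10 weeks. The difference was 0.69 ± 0.23 at 20 weeks (limma adjusted p = 0.143) and -0.27 ± 0.23 at 10 weeks. The interaction of -0.95 ± 0.32 had an unadjusted p of 0.0117 by limma and did not pass (adjusted p = 0.524). A dim second probe set (7.93 to 98) was lower in diabetic rats of 20 weeks, without overlap, so the 2 probe sets disagreed.

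Among the remaining orphans, Nr2f2, or COUP-TFII, a factor of veins and mesenchyme, had 3 probe sets. Its brightest probe set read 4684, 3907 and 3812 in nondiabetic and 4282, 4273 and 4380 in diabetic rats of 10 weeks. At 20 weeks it read 4933, 4587 and 4310 in nondiabetic and 4833, 4675 and 4798 in diabetic rats, with overlap at both ages. That was a difference of 0.06 ± 0.06 over both ages (95% interval -0.07 to 0.19). A dimmer one (81.1 to 142) gave 0.54 ± 0.22 at 20 weeks without passing (limma adjusted p = 0.246), with the diabetic arrays higher. A further one (257 to 764) gave 0.40 ± 0.36 at that age. At 10 weeks these 2 probe sets gave -0.14 ± 0.22 and -0.52 ± 0.36. The summed signal of 10 endothelial markers was 10872 to 12235 in nondiabetic and 9691 to 10273 in diabetic rats of 20 weeks. At 10 weeks the sums overlapped, at 10556 to 12330 and 10293 to 11613. Of 8 tested 1, Vwf, was called at 20 weeks, lower, where 1.62% of all probe sets were. It was 0 or 1 when single arrays were left out, and 0 without both doubted arrays. Nr2c1, the testicular receptor TR2, read 158.7, 165.9 and 215.1 against 215.3, 250.4 and 242.2 at 20 weeks, just without overlap, and 0.40 ± 0.16 did not pass (adjusted p = 0.238). Esrra, which with its coactivator Ppargc1a drives mitochondrial genes, was between 597 and 1173 and gave -0.18 ± 0.15 over both ages (adjusted p = 0.583). Of 16 tested Esrra targets 1 rose over both ages, Pdk4, which the PPAR list holds too, and none fell (median 0.03). The share of all probe sets called higher over both ages was 2.14%.

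Nr4a1, or Nur77, is an immediate early gene, switched on within minutes by many stimuli. It read 289.6, 148.1 and 249.7 against 216.9, 263.4 and 165.4 at 10 weeks and 218.6, 183.8 and 161.4 against 289.1, 286.8 and 144.2 at 20 weeks. The groups overlapped at both ages, and 0.29 ± 0.31 at 20 weeks did not pass (adjusted p = 0.692). Its relatives Nr4a2 (22.3 to 97.4) and Nr4a3 (42.4 to 85.9) were under the filter. Of 22 tested immediate early genes 3 rose at 20 weeks, namely Myc (1.42 ± 0.24), Klf6 (0.74 ± 0.16) and Fos (1.31 ± 0.28), and none fell. Of all probe sets 1.22% were called higher and 1.62% lower at that age. The list's median at 20 weeks was 0.23. The count was 0 without 20-week diabetic replicate 3, 1 without diabetic replicate 2 or nondiabetic replicate 2 or 3 of that age, and 2 without both doubted arrays. Over both ages Myc alone was called, and leaving out single arrays gave 0 to 2. The part of tissue handling in these values was not tested.

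The other receptors under the filter were Nr2c2 (5.96 to 69.9), Nr2f1 (6.01 to 108), Nr5a2 (5.69 to 57.8), Esr1 (2.52 to 36.9) and Pgr (10.5 to 80). With Nr0b2, Nr1i3, Ppara, Pparg, Nr4a2 and Nr4a3 they made up the 11 not tested, and a signal this low shows neither presence nor absence of the transcript. In the fit with no filter none of these 11 was called in any of the 5 comparisons. Of 11 tested targets of the sex steroid receptors 1 rose over both ages, Myc (0.76 ± 0.17), which 2 of the lists share, and none fell. The median of that list was nevertheless -0.21 over both ages and -0.34 at 20 weeks. Over both ages 2.14% of all probe sets were called higher.

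**Figure D4:**
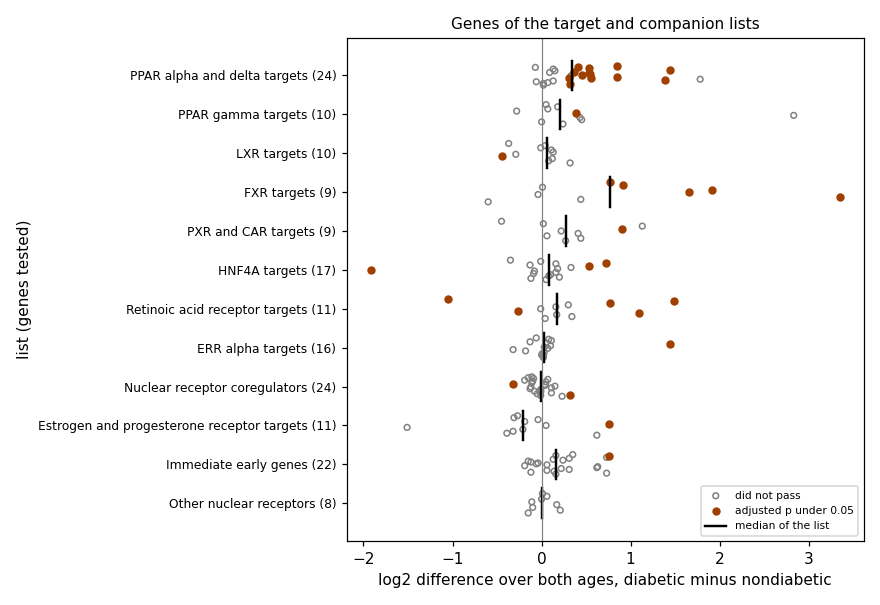
Log2 difference over both ages (horizontal axis) of each gene tested in the 12 lists of receptor targets and companions; filled points had an adjusted p under 0.05, open points did not, and bars are list medians. The lists of PPAR alpha and delta targets (13 of 24 higher) and of FXR targets (5 of 9 higher) hold most filled points. The medians of coregulators and other nuclear receptors lie near 0. The lists were chosen with earlier results of these data known.

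Few coregulators, the proteins through which receptors switch genes on or off, differed. Of 24 tested 1 rose, the acetyltransferase Ep300 (0.32 ± 0.08), and 1 fell, the corepressor Nrip1 (-0.32 ± 0.08), and neither was called without both doubted arrays. Leaving out single arrays gave 0 or 1 in each direction. Of all probe sets 2.14% were called higher and 2.34% lower over both ages. Ppargc1a gave -0.10 ± 0.07 (adjusted p = 0.514). Limma called none of 8 tested receptors from the clock, steroid and other families in either direction over both ages.

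Normal maturation was read from nondiabetic rats, 20 minus 10 weeks. Limma called 0 of 18 receptors and 0% of all probe sets, and 1 receptor, Rora (-0.61 ± 0.23), had an unadjusted p under 0.05, as did 8.61% of all probe sets. The median over the 18 was 0.00. In 1 receptor, Nr1h3, the arrays of the 2 ages did not overlap, beside 12.1% of all probe sets. In the interaction limma called 0 of 18 and 0% of all probe sets, and Nr1h4 and Rora had an unadjusted p under 0.05, as did 7.95% of all probe sets. Between diabetic and nondiabetic rats 4 of 18 receptors did not overlap at 10 weeks (17% of all probe sets) and 6 of 18 at 20 weeks (20.9%).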

How the data were processed

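Signal intensities of 12 arrays, 1 a sample, were used as deposited. The authors made these intensity values with GCOS, per the submitters' processing notes. Neither its version nor its summary method is given in the sources used here. Without the top and bottom 2% of values every array averaged 500.2, so differences are relative to the other transcripts of an array. Control probe sets (57) were left out, and signals below 1 were set to 1 before log2. Gene names came from the array annotation, updated through RefSeq (GRCr8). A model of 4 group means was fitted to all 12 arrays with limma 3.58.1 in R 4.3.3 (8 residual degrees of freedom, moderated variances with an intensity trend, two-sided tests). The number of arrays limits the precision.

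The members, the lists and the doubted arrays were chosen with earlier results of these data known. Every member is named. Values by array are given for called members, those with an unadjusted p under 0.01, the 6 brightest, and some chosen after their values were seen. Of list genes, up to 4 with the smallest p are named, or all where 5 passed. Lists are described by counts and medians. In a test on simulated data some probe sets were given a log2 change. Of those given 0.5 the model called 26% (10 weeks), 20% (20 weeks) and 50% (both ages). Of those given 1 it called 52%, 58% and 84%. For the interaction it called 8% at 0.5 and 48% at 1, so differences between the ages of such sizes could be missed. The labels do not say that arrays came from separate rats, so the spread behind each p-value may be partly technical.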

Additional observations from a re-analysis of the deposited data

How the results depend on the processing

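In all 26 alternatives to the main analysis, or 25 over both ages, the differences of Nr1h4 at 20 weeks (-0.65 to -0.50) and of Nr2f6 (-0.58 to -0.33) and Ppard (-1.37 to -0.51) over both ages kept their direction, quantile and median scaling included. Ppard kept its call in all 25, Nr2f6 in 23 and Nr1h4 in 18. At 20 weeks 2 receptors were called with quantile normalization (Hnf4a and Nr1h4) and with the lowest 60% of probe sets left out (Nr1h4 and Nr2f6), and 0 without an intensity trend or without both doubted arrays. Leaving out single arrays gave 0 to 1 there. Averaging all probe sets of a gene gave 1 receptor at 10 weeks (Ppard, -1.95) and 1 over both ages (Ppard), since it mixes in dim probe sets; 1 (Ppard) was called over both ages without both doubted arrays. The cause of the other moves was not tested. With group means removed, same-numbered arrays correlated over 0.1 in 4 of 18 pairs (median 0.032). Differently numbered arrays did so in 5 of 36 (median -0.016). The numbers were not taken as pairs, although these values do not settle whether they were. With the replicate number as a block the counts were 0, 1 and 2 at 10 weeks, 20 weeks and over both ages, and no receptor's call changed. Dim signals limit the 11 receptors not tested.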
